A study of Saccharomyces cerevisiae with 5 samples.

Results

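The yeast deletion strains of 7 genes are described here: CIN8, KIP1, KIP2, KIP3 and KAR3, which encode kinesin motors, and CIK1 and VIK1, which encode the partner proteins of KAR3. They were chosen by gene symbol in the platform annotation, and the group was chosen from the measured values, because the CIN8 strain was strongly negative on the array that carried both pools through its second tag only. The 7 genes are among 5325 on the arrays. They hold 9 of 5444 tag sets, 18 of 10888 tags and 76 of 18794 named spots. Every member was measured on all 5 arrays, with no filter on low values.

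Kinesins are motor proteins that use ATP to walk along microtubules, and in budding yeast they build the mitotic spindle, position it in the cell and move nuclei together in mating. Kip2 and Kip3 walk toward the growing plus end of the microtubule, whereas Kar3 walks toward the minus end and is targeted by a bound non-motor partner, either Cik1 or Vik1. No single one of these genes is required for growth under standard conditions, and some of the motors overlap in function. CIN8 lies on chromosome V, KIP1 on chromosome II, KIP3 on chromosome VII and CIK1 on chromosome XIII, and KIP2, KAR3 and VIK1 lie on chromosome XVI.

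The study measured DNA barcodes (tags) that mark each strain of the heterozygous deletion collection, in which diploid cells lack 1 copy of a gene and keep the other. A strain carries 2 tags, amplified in separate PCRs of 50 cycles and read by separate spots, so a ratio reports the abundance of a strain's tag and no level of RNA or protein. Strains were grown on YPD agar and combined into Pool A and Pool B, which differ by design in 94 strains only. These 94 entered Pool B undiluted or diluted 8-fold or 64-fold. They were then diluted further for Pool A, in steps reaching from 0.33 to 5 log2 units, or left out of Pool A. The labels do not name the 94 strains, so it is not known from them whether any of the 7 was among these. The arrays form 3 groups. The Pool A versus Pool B group has 1 array, with Pool A in Cy3 and Pool B in Cy5, and is called the mixed array. The Pool B self-self group has 1 array with Pool B in both channels, and the Pool A self-self group has 3 arrays with Pool A in both channels. No dye-swapped array was analysed here.

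All values are log2 ratios of the 2 channels, centred on each array's median of the named spots unless called deposited. Taking Cy5 over Cy3 as the ratio, a negative value on the mixed array would mean less signal from Pool B. The files do not state this direction, and it is likely only: by design no strain is rarer in Pool B, and 14 strains had both tags at 2 or more on the mixed array minus the Pool A mean, against 2 with both at -2 or less. A tag or strain is called where limma gave an adjusted p under 0.05 (Benjamini-Hochberg over all tags or all strains), and a strain's value is the mean of its 2 tags. Counts of called strains on the mixed array did not lean 1 way. They were 84 positive and 318 negative against the Pool A mean, but 27 positive and 6 negative against all 4 self-self arrays. The labels do not tell whether separate cultures or separate DNA samples were behind the 3 Pool A arrays. The p-values thus cover the spread between those arrays alone (which may be technical), and so few arrays limit their precision. The Pool B array carries another date in its title than the other 4 arrays, so pool and date cannot be told apart. Array medians before centring were -0.50 on the mixed array, -0.77 on the Pool B array, and -0.33, 0.07 and 0.03 on the Pool A arrays. Centring therefore removed a shift of -0.42 from the mixed array minus the Pool A mean, and of -0.69 from that of the Pool B array. Differences are relative to those shifts.

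CIN8 encodes a bipolar kinesin that pushes the spindle poles apart by sliding microtubules of opposite orientation. Its second tag had a centred log2 ratio of -4.22 on the mixed array, against 0.56 on the Pool B array and 0.12, -0.16 and -0.17 on the Pool A arrays. The mixed array lay far below the other 4, which stayed within 1 log2 unit of 0. The difference of the mixed array from the Pool A mean was -4.15 ± 0.25 (SE from limma; n = 1 and 3 arrays). This difference chose the members, so it is a description and carries no test. It was the lowest of all 10888 tags, of which 24 were at -2 or less, 2 at -3 or less and 1, this one, at -4 or less.

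The low value was shared by all 6 spots of the second tag. On the mixed array their deposited log2 ratios were -4.68 at the spot of the main layout and -4.92, -4.97, -4.92, -4.72 and -4.11 along a run of 5 repeat spots. As linear ratios these spots read 0.039, 0.033, 0.032, 0.033, 0.038 and 0.058, that is 25.6-fold, 30.3-fold, 31.3-fold, 30.3-fold, 26.3-fold and 17.2-fold more signal in one channel than in the other. On the Pool B and Pool A arrays all 24 readings of the same spots had deposited log2 ratios between -0.38 and -0.03. All 6 spots were among the 20 lowest named spots of the mixed array, and 0 named spots lay below the lowest of them. Their standard deviation on that array was 0.322 log2 units, against a median of 0.148 over all tags with 6 spots. The spots next to them in the order of spot numbers were read on the mixed array as well. Whether these lie side by side on the array was not checked. PRB1 and NPR2, before and after the main spot, read -0.10 and 0.05 after centring, and HAT2 and PAC2, before and after the run, read 0.37 and 0.32.

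**Figure D1:**
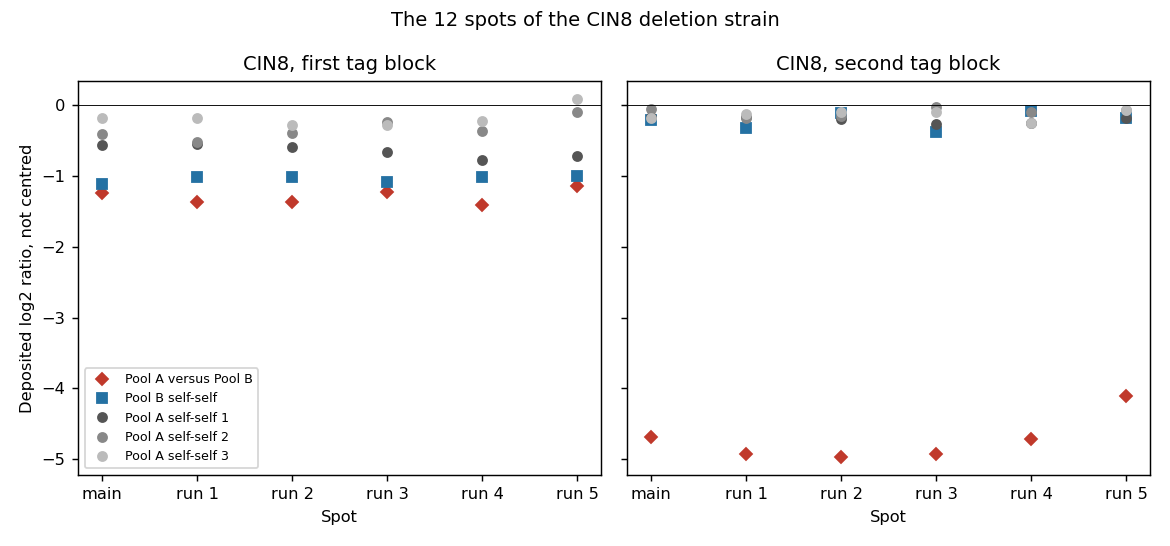
Deposited log2 ratio (vertical axis, not centred) of the 6 spots of each CIN8 tag: the spot of the main layout and the run of 5, in the first (left) and second (right) tag block. Each symbol is 1 spot on 1 array. The second-tag spots of the Pool A versus Pool B array lie between -4.97 and -4.11, and those of the other 4 arrays between -0.38 and -0.03.

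The first tag of the same CIN8 strain did not share this value. It read -0.79 on the mixed array, against -0.27 on the Pool B array and -0.32, -0.41 and -0.21 on the Pool A arrays. The mixed array was again the lowest, and the difference from the Pool A mean was -0.48 ± 0.24. The second tag minus the first was therefore -3.43 on the mixed array, against 0.83 on the Pool B array and 0.44, 0.24 and 0.04 on the Pool A arrays. Relative to the Pool A mean this gap was -3.67, and 4 of 5444 tag sets had a gap of larger size. Averaged over both tags, the CIN8 strain read -2.50 on the mixed array, 0.14 on the Pool B array and -0.10, -0.29 and -0.19 on the Pool A arrays, a difference from the Pool A mean of -2.31 ± 0.19 that ranked 3 from the lowest of all strains. The mean thus describes neither tag.

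Strains with 1 tag at -2 or less and the other within 0.5 of 0 on the mixed array minus the Pool A mean numbered 14, CIN8 included. In 13 of them the low tag was in the first block, and CIN8 was the 1 strain with its low tag in the second. CIN8 was close to the cut of 0.5, with its first tag at -0.48. With a Pool A array left out that tag was at -0.53 to -0.43, past the cut without replicate 2. After CIN8 the lowest were GUP1 with a first tag at -2.64, RPS23B at -2.50, RGS2 at -2.44 and YDL218W at -2.21. In the opposite direction, 9 strains had 1 tag at 2 or more and the other within 0.5 of 0. Euclidean distance to CIN8 was taken over 10 values, the 2 tags on 5 arrays. These include the value that chose the members, so the distances are a description and carry no test. The nearest were KRS1 at 3.28, DID2 at 3.29, TPS1 and SCD5 at 3.30 and COQ1 at 3.45, where the median distance of all other tag sets was 4.68. The second tags of these 5 read between -1.22 and -0.99 on the mixed array, well above that of CIN8.

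**Figure D2:**
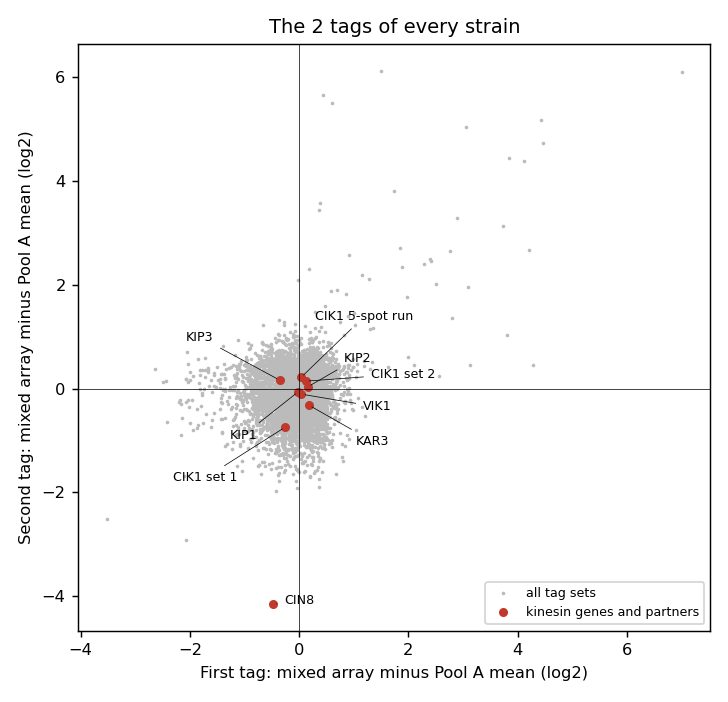
Difference of the Pool A versus Pool B array from the Pool A self-self mean (log2, 3 arrays) for the first tag (horizontal axis) and the second tag (vertical axis) of every tag set, with the 9 tag sets of the 7 genes in red and named. CIN8 stands at -0.48 and -4.15, and the other 8 named sets lie between -0.74 and 0.22 on both axes.

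On the mixed array the other members differed less from the Pool A arrays. Of the 9 tag sets 1 was called, CIN8, in the negative direction, where 5.84% of all strains were called negative and 1.54% positive. Of the 18 tags 1 was called, the second tag of CIN8, where 6.53% of all tags were called negative and 1.87% positive. The balance of directions over the whole table depended on the arrays set against. Of the strains, 84 were positive and 318 negative against the Pool A mean, but 27 were positive and 6 negative against all 4 self-self arrays. Of the tags, 204 were positive and 711 negative against the Pool A mean, 45 and 27 against all 4 self-self arrays, and 11 and 1 without Pool A replicate 1. With quantile normalization 108 strains and 548 tags were positive and 190 strains and 842 tags negative. Since the members were chosen on this contrast, these counts are read against nothing. The differences of the 16 tags of the other members lay between -0.74 and 0.22, and the median over all 18 was 0.01, against -0.04 over all tags.

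**Figure D3:**
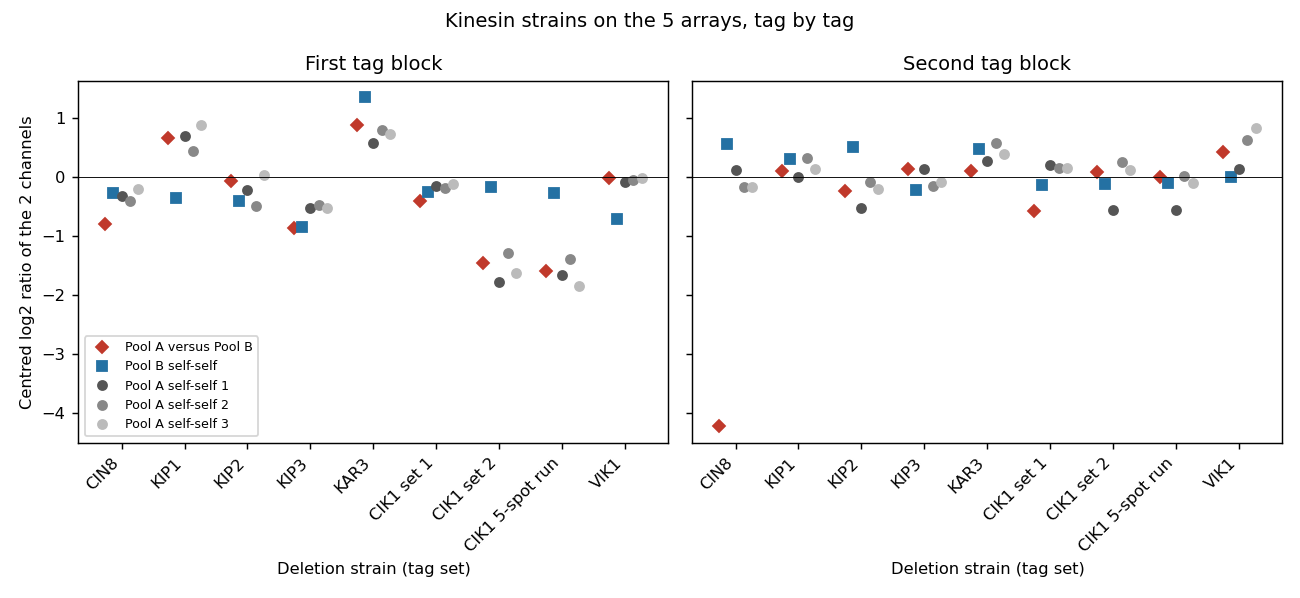
Centred log2 ratio of the 2 channels (vertical axis) for the 9 tag sets of the 7 genes (horizontal axis), in the first (left) and second (right) tag block. Diamonds are the Pool A versus Pool B array, squares the Pool B self-self array and circles the 3 Pool A self-self arrays. The second tag of CIN8 stands alone at -4.22, and the first tags of CIK1 set 2 and of the CIK1 run are between -1.85 and -1.29 on every array but the Pool B array.

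KIP1 encodes the other bipolar spindle kinesin, which overlaps with Cin8 in spindle pole separation. Its first tag read 0.66 on the mixed array, -0.36 on the Pool B array, and 0.69, 0.44 and 0.89 on the Pool A arrays. The mixed array fell within the Pool A range, with a difference of -0.01 ± 0.25, and only the Pool B array was below 0. In the comparison of the Pool B array with the Pool A mean, which was not used to choose the members but shares the Pool A arrays with the contrast that was, this tag was lower by -1.03 ± 0.25 on the Pool B array (adjusted p = 0.00539, limma). The call ended when Pool A replicate 1 was left out (-1.02, adjusted p = 0.0705, limma), but then no tag of any gene was called in this comparison. The call of KIP1 held under the other 9 alternatives, whose values reached -1.73. The second tag of KIP1 read 0.09 on the mixed array, 0.30 on the Pool B array and -0.00, 0.32 and 0.14 on the Pool A arrays. The arrays overlapped, and neither its difference on the mixed array (-0.06 ± 0.25) nor that on the Pool B array (0.15 ± 0.25, adjusted p = 0.689, limma) exceeded its error. As a strain KIP1 differed by -0.44 ± 0.19 on the Pool B array, which missed the threshold (adjusted p = 0.0981, limma), although it passed without Pool A replicate 1 (-0.48, adjusted p = 0.0482) and without centring (-1.14, adjusted p = 0.0137).

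KIP2 encodes a plus-end-directed kinesin of cytoplasmic microtubules that carries tip-bound proteins outward and is needed for long microtubules reaching into the bud. Its first tag read -0.07 on the mixed array, -0.40 on the Pool B array and -0.23, -0.49 and 0.03 on the Pool A arrays, so both other groups fell inside the Pool A range. Its second tag read -0.24 on the mixed array, 0.51 on the Pool B array and -0.52, -0.09 and -0.21 on the Pool A arrays. The Pool B array was the only one above 0. The second tag was higher on the Pool B array by 0.78 ± 0.25 (adjusted p = 0.0312, limma), a call that ended without Pool A replicate 1 (0.65, adjusted p = 0.0635), without Pool A replicate 3 (0.81, adjusted p = 0.0528) and without centring (0.08, adjusted p = 0.89). Without Pool A replicate 1 no tag of any gene was called in this comparison. The first tag of KIP2 differed by -0.17 ± 0.26 (adjusted p = 0.654, limma), less than its error, so its direction cannot be told.

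KIP3 encodes a kinesin that walks to microtubule plus ends and shortens them there, and it helps to position the spindle. Its first tag was below 0 on every array: -0.86 on the mixed array, -0.85 on the Pool B array and -0.53, -0.47 and -0.52 on the Pool A arrays. The mixed and Pool B arrays were nearly equal and lay below the Pool A arrays, with differences of -0.35 ± 0.24 each, and the Pool B difference missed the threshold (adjusted p = 0.298, limma). The second tag read 0.13 on the mixed array, -0.22 on the Pool B array and 0.14, -0.15 and -0.09 on the Pool A arrays, with no separation beyond the error (-0.19 ± 0.25 on the Pool B array, adjusted p = 0.588, limma).

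KAR3 encodes a minus-end-directed kinesin, which acts in nuclear fusion during mating and in the mitotic spindle. Its first tag was above 0 on every array, at 0.88 on the mixed array, 1.35 on the Pool B array and 0.57, 0.80 and 0.72 on the Pool A arrays. The Pool B array was highest, yet its difference of 0.65 ± 0.24 missed the threshold (adjusted p = 0.0619, limma). It passed with tag blocks centred separately (0.75, adjusted p = 0.0108), with quantile normalization (1.06, adjusted p = 0.000137) and with the median of repeat spots (0.71, adjusted p = 0.0368). The second tag read 0.10 on the mixed array, 0.47 on the Pool B array and 0.28, 0.58 and 0.39 on the Pool A arrays. The mixed array was the lowest there, by -0.32 ± 0.25 from the Pool A mean, and the Pool B array fell inside the Pool A range.

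CIK1 encodes the partner that takes Kar3 to microtubules in mating and in vegetative cells. It is present as 2 tag sets of the main layout, called set 1 and set 2, with 1 spot per tag, and as a run of 5 repeat spots per block. The annotation does not say to which set the run belongs, so it was kept apart. On the 5 arrays the run differed from set 2 by a mean of 0.139 log2 units in the first block and 0.11 in the second, against 1.13 and 0.353 from set 1. Set 2 and the run may therefore read the same tags, and their values are not 2 independent observations.

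The first tag of CIK1 set 2 read -1.45 on the mixed array, -0.16 on the Pool B array and -1.78, -1.29 and -1.63 on the Pool A arrays. The run read -1.60 on the mixed array, -0.26 on the Pool B array and -1.66, -1.38 and -1.85 on the Pool A arrays. In both, the mixed array fell inside the Pool A range and the Pool B array stood apart, close to 0. The tag was higher on the Pool B array by 1.41 ± 0.26 in set 2 (adjusted p = 0.000441, limma) and by 1.37 ± 0.25 in the run (adjusted p = 0.000547, limma). Both calls ended without centring (0.71 in set 2, adjusted p = 0.198, and 0.67 in the run, adjusted p = 0.207, limma). They also ended without Pool A replicate 1 (1.30 in set 2, adjusted p = 0.0572, and 1.35 in the run, adjusted p = 0.0605, limma), where no tag of any gene was called.

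The second tag of CIK1 did not follow the first. In set 2 it read 0.08 on the mixed array, -0.12 on the Pool B array and -0.56, 0.25 and 0.11 on the Pool A arrays, and in the run 0.00 on the mixed array, -0.10 on the Pool B array and -0.56, 0.02 and -0.10 on the Pool A arrays. Pool A replicate 1 was the low one in both. As strains, set 2 was higher on the Pool B array by 0.67 ± 0.22 (adjusted p = 0.0283, limma) and the run by 0.74 ± 0.20 (adjusted p = 0.0115, limma). Without centring both calls ended (-0.02 in set 2, 0.05 in the run). That of set 2 also ended with arrays scaled to one spread (0.76, adjusted p = 0.105) and without Pool A replicate 1 (0.50, adjusted p = 0.0541).

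CIK1 set 1 gave other values than set 2 for the same gene. Its first tag read -0.40 on the mixed array, -0.26 on the Pool B array and -0.15, -0.18 and -0.12 on the Pool A arrays. Its second tag read -0.57 on the mixed array, -0.14 on the Pool B array and 0.21, 0.15 and 0.16 on the Pool A arrays. In both tags the mixed array was the lowest, the Pool B array came next and the Pool A arrays lay close together, with differences on the mixed array of -0.25 ± 0.24 for the first tag and -0.74 ± 0.24 for the second. The second was the largest difference in size on the mixed array after that of CIN8. It was outside the calls above, but inside them with tag blocks centred separately (-0.70) and with quantile normalization (-0.73). On the Pool B array neither tag passed the threshold (-0.10 ± 0.24, adjusted p = 0.783, and -0.31 ± 0.24, adjusted p = 0.357, limma).

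VIK1 encodes the partner that places Kar3 near the spindle poles in vegetative cells. Each of its tags rests on 1 spot. The first tag read -0.01 on the mixed array, -0.71 on the Pool B array and -0.09, -0.06 and -0.02 on the Pool A arrays. The second tag read 0.42 on the mixed array, -0.00 on the Pool B array and 0.14, 0.63 and 0.83 on the Pool A arrays. In both tags the Pool B array was the lowest of the 5. The differences were -0.65 ± 0.24 (adjusted p = 0.057, limma) for the first tag and -0.53 ± 0.27 (adjusted p = 0.15, limma) for the second. Neither passed the threshold as reported here, but the first tag did without centring (-1.35, adjusted p = 0.0224) and with quantile normalization (-0.66, adjusted p = 0.0261). The mean of both tags passed: the VIK1 strain was lower on the Pool B array by -0.59 ± 0.20 (adjusted p = 0.0354, limma). That call ended with arrays scaled to one spread (-0.55, adjusted p = 0.0866), without Pool A replicate 2 (-0.57, adjusted p = 0.0906) and without Pool A replicate 3 (-0.51, adjusted p = 0.132).

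CIN8 itself did not differ past the threshold between the self-self arrays. Its second tag was 0.63 ± 0.25 higher on the Pool B array than the Pool A mean (95% interval before adjustment 0.11 to 1.14, adjusted p = 0.0725, limma), and it passed with tag blocks centred separately (0.65, adjusted p = 0.0311) and with quantile normalization (0.69, adjusted p = 0.0188). Its first tag differed by 0.04 ± 0.24 (adjusted p = 0.918, limma). Over all members, 4 of 18 tags were called between the Pool B array and the Pool A mean: 3 higher (KIP2 second, and the first tags of CIK1 set 2 and of the run) and 1 lower (KIP1 first). Among all tags 7.89% were called higher and 13.3% lower (859 and 1451 tags), a split that moved to 42 higher and 2574 lower without centring, 1853 and 1677 with tag blocks centred separately, and 1706 and 1785 with quantile normalization. Of the 9 strains, 2 were called higher (CIK1 set 2 and the run) and 1 lower (VIK1), against 8.54% higher and 13.3% lower among all strains (465 and 725 strains). CIK1 set 2 and the run may read the same tags, so their calls, as tags and as strains, may be 1 observation counted 2 times. The split over all strains was 5 higher and 1894 lower without centring, 754 and 693 with tag blocks centred separately, and 793 and 821 with quantile normalization. The median difference of the 18 tags was -0.01, equal at 2 decimals to the median over all tags. Leaving out Pool A replicate 1 left 0 of 10888 tags called in this comparison by limma, with 4977 at an unadjusted p under 0.05 and a smallest adjusted p of 0.0572. The total degrees of freedom of that fit were 3.349, against 23.25 with all arrays. The end of a tag's call there is thus not particular to that tag.

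**Figure D4:**
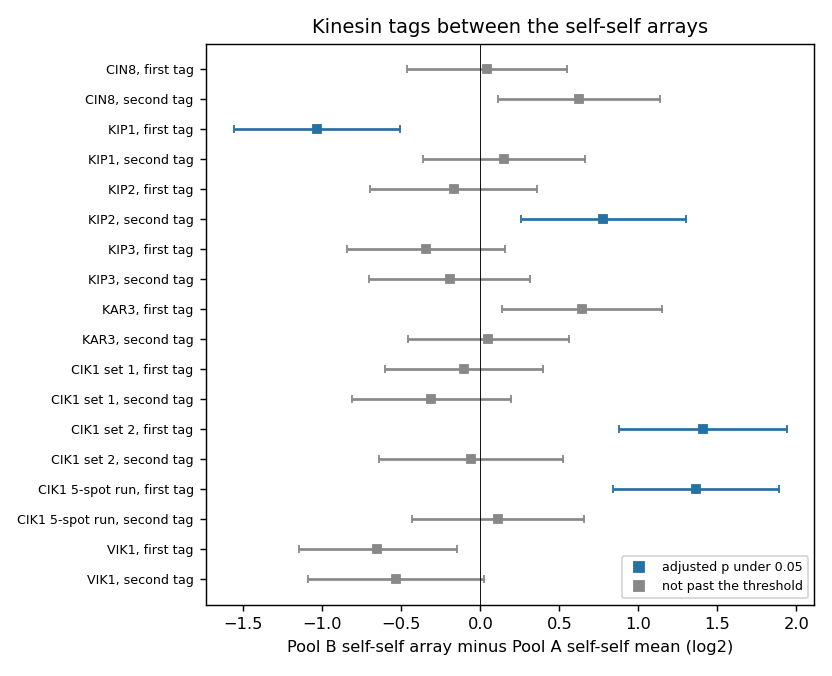
Difference of the Pool B self-self array from the Pool A self-self mean (log2, 3 arrays, horizontal axis) for the 18 tags of the 7 genes; squares are limma estimates and bars their 95% intervals before adjustment. The 4 tags in blue passed the threshold: KIP1 first at -1.03, KIP2 second at 0.78, CIK1 set 2 first at 1.41 and the CIK1 run first at 1.37.

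On the Pool A self-self arrays both channels held the same pool, so a mean away from 0 is a difference between the channels for that tag. Of the 18 member tags 8 departed from 0, with 4 above and 4 below, against 25.7% of all tags above and 22.5% below (2803 and 2455 tags, or 1202 and 1668 without centring). Above 0 were the first tags of KAR3 (0.70 ± 0.12, adjusted p = 5.06e-05, limma) and KIP1 (0.67 ± 0.13, adjusted p = 0.00012) and the second tags of VIK1 (0.53 ± 0.14, adjusted p = 0.00214) and KAR3 (0.42 ± 0.12, adjusted p = 0.00713). Below 0 were the first tags of the CIK1 run (-1.63 ± 0.13, adjusted p = 4.45e-10, limma), CIK1 set 2 (-1.57 ± 0.13, adjusted p = 1e-09), KIP3 (-0.51 ± 0.12, adjusted p = 0.00123) and CIN8 (-0.31 ± 0.12, adjusted p = 0.0381). The 2 CIK1 entries may be the same tag, so the count below 0 may hold it 2 times. The departures of KAR3 first, KIP1 first, KIP3 first and both CIK1 first tags held under every alternative tried for them. That of CIN8 ended without each Pool A replicate in turn (adjusted p = 0.0761, 0.258 and 0.0959 without replicates 1, 2 and 3), and that of the second KAR3 tag without Pool A replicate 2 (0.34, adjusted p = 0.128). That of VIK1 ended without Pool A replicate 3 (0.38, adjusted p = 0.0761). Without centring these 3 also lost their calls, at -0.39 for CIN8, 0.34 for KAR3 and 0.46 for VIK1, and with tag blocks centred separately CIN8 and KAR3 did, at -0.11 and 0.21. Other tags came past the threshold, all below 0. They were the second tag of the CIK1 run with tag blocks centred separately (-0.42, adjusted p = 0.00237), the first tag of KIP2 with quantile normalization (-0.28, adjusted p = 0.0427), and the second tag of KIP2 with tag blocks centred separately (-0.48, adjusted p = 0.000507), quantile normalization (-0.30, adjusted p = 0.028) and the median of repeat spots (-0.32, adjusted p = 0.0329).

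Ratios within the runs of 5 repeat spots moved with the place in the run. The last spot was above the first in all 12 member runs on the mixed array, by 0.168 to 0.814 log2 units, and in all 24 readings on Pool A replicates 2 and 3, by 0.06 to 0.873. It was above the first in 8 of 12 runs on the Pool B array and in 8 of 12 on Pool A replicate 1. The runs of all genes were read as well. On the mixed array the last spot was above the first in 97.5% of them in the first block and 95.7% in the second. On Pool A replicates 2 and 3 the shares were 98.4% and 98.9% in the first block and 96.2% and 99.4% in the second. On the Pool B array and Pool A replicate 1 they were 68.2% and 81.1% in the first block. Over 793 runs the median of last minus first in the first block was 0.365 on the mixed array, 0.036 on the Pool B array and 0.138, 0.425 and 0.643 on the Pool A arrays. In the second block it was 0.279 on the mixed array, 0.0022 on the Pool B array and 0.0398, 0.376 and 0.553 on the Pool A arrays, with the last spot above the first in 50.3% of runs on the Pool B array and 64.7% on Pool A replicate 1. The second CIN8 tag had the largest step of the members on the mixed array, 0.814, and 0.139 on the Pool B array. Its 6 spots were all below -4 in deposited units on the mixed array, and the difference of the tag from the Pool A mean was -4.15. Since the tags of VIK1 and of CIK1 sets 1 and 2 rest on single spots, no such spread can be given for them. The part of the place in the run in the value of CIN8 and in the other values was not tested.

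**Figure D5:**
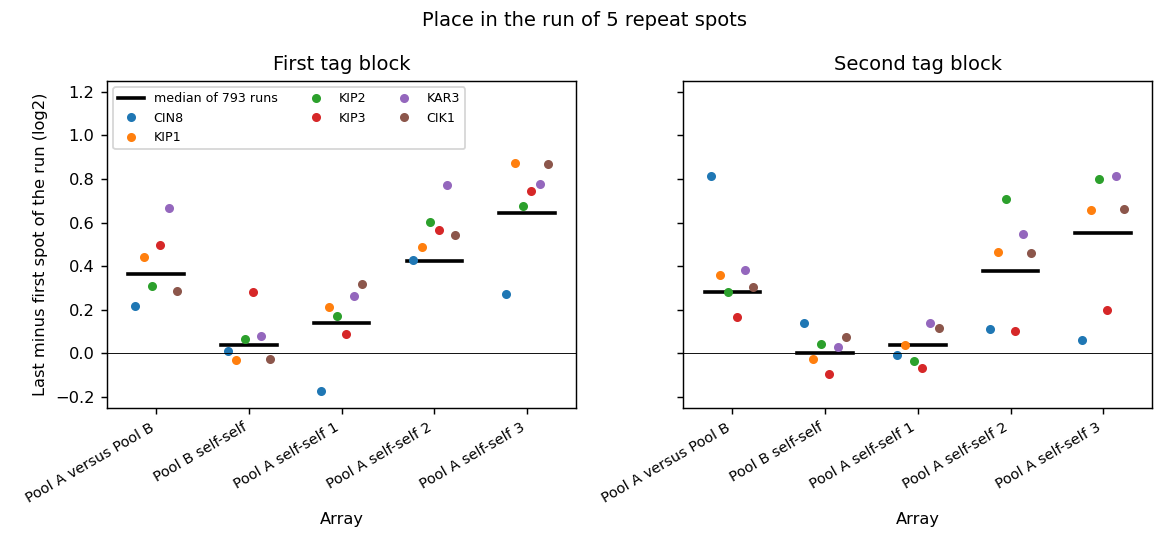
Last minus first spot of the run of 5 repeat spots (log2, vertical axis) on each array (horizontal axis), in the first (left) and second (right) tag block; dots are the 6 genes with a run and black bars the median of 793 runs. On the mixed array and on Pool A self-self replicates 2 and 3 every dot is above 0.

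Other genes of the spindle and of microtubules were read from lists of 70 genes, of which 64 are named on the arrays, in 66 tag sets. On the mixed array 1 of these strains was called, DYN3, a dynein light intermediate chain, in the negative direction (-0.71 ± 0.20, adjusted p = 0.0253, limma). That is 1.52% of the 66, where 5.84% of all strains were called negative and 1.54% positive. The DYN3 strain read 0.07 on the mixed array, 0.32 on the Pool B array and 0.77 in the Pool A mean. It was thus below the Pool A mean on the mixed array, but not below 0. The strains furthest from 0 in the other lists did not pass the threshold. They were SMY1, the remaining kinesin-like gene, at 0.19, the tubulin gene TUB2 at -0.37, the tubulin folding factor CIN2 at -0.48, the microtubule-binding CLASP protein STU1 at -0.61, the DASH complex subunit SPC19 at -0.45, the spindle pole body gene MPS3 at -0.58, the Aurora kinase IPL1 at 0.04 and the checkpoint gene BUB3 at -0.49. Over the 66 tag sets the median difference was -0.07, against -0.06 over all strains.

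Between the Pool B array and the Pool A mean, 4 of the 66 tag sets were higher and 10 lower, 21.2% in all, where 8.54% of all strains were higher and 13.3% lower, so the share was near that of all strains. Among 7 tag sets of tubulin and the gamma-tubulin complex, 4 were lower: TUB1, alpha-tubulin, at -1.07, TUB4, gamma-tubulin, at -0.59, and both tag sets of SPC98, a gamma-tubulin complex subunit, at -0.67 and -0.68. That is 57.1% of a list of 7 tag sets from 6 genes, beside the 13.3% of all strains that were lower. The 2 SPC98 tag sets read alike, at -0.42 and -0.40 on the Pool B array and 0.24 and 0.28 in the Pool A mean. They may not be independent observations, so the share may count SPC98 2 times. TUB1, TUB4 and SPC98 were named after their values were seen. So was NUD1, a spindle pole body scaffold, which read -2.12 on the mixed array, 0.17 on the Pool B array and -2.36 ± 0.15 on the Pool A arrays (SD, n = 3), a difference of 2.54 ± 0.20 (adjusted p = 4.75e-09, limma). Like the first tag of CIK1 set 2, the NUD1 strain was low on the mixed array and on all Pool A arrays and near 0 on the Pool B array.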

How the data were processed

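Each deposited value is a log2 ratio of 2 dye channels at 1 spot of a tag array. Base 2 turned 100% of the values with a ratio under 1.5 into numbers of 3 decimals, and base 10 turned 12.6%. What the authors did before depositing them (scanner, background treatment, genome build, normalization) is not given in the sources used here. Genes were named from the platform annotation, which gave 5325 genes. Of these 5321 matched a gene table of assembly R64 by identifier, used for names, chromosomes and gene order only.

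Spots form 2 blocks, taken as the 2 tags of a strain, and the files do not tell the UPTAG block from the DNTAG block. A run of 5 further spots per block exists for 793 genes. Each array was centred on its median of named spots, repeat spots were averaged to tags and 2 tags to strains. Where a gene had a run and over 1 tag set (12 genes, CIK1 among them), the run was kept as its own set. The limma package (version 3.58.1, R 4.3.3) fitted linear models with moderated variances over all tags or strains with 3 groups and no covariate, two-sided. The 3 Pool A arrays supplied all of the residual spread, which the single mixed and Pool B arrays were taken to share. The fit was tested on simulated data.

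All 7 members are named, with the strain furthest from 0 in each spindle list, the 5 strains nearest to CIN8 and the 5 lowest of the strains with 1 low tag. Members and lists were chosen with earlier results of these data known. The 12 alternatives covered centring, scaling, quantile normalization, repeat spots, the arrays set against and leaving out each Pool A array. Tag sequences were not used here.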

Additional observations from a re-analysis of the deposited data

How the results depend on the processing

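The second tag of CIN8 on the mixed array minus the Pool A mean, a value that chose the members and is not tested, was negative under all 12 alternatives. It was -4.57 without centring, -2.90 with quantile normalization, -4.78 against the Pool B array alone, and -4.20 to -4.05 with a Pool A array left out. Counts of calls moved more. For that contrast, 402 strains became 227 without centring, 226 with every array scaled to equal spread, 33 against all 4 self-self arrays and 190 to 480 with a Pool A array left out. Its 915 tags became 301 without centring, 1462 with tag blocks centred separately, 1390 with quantile normalization, 72 against all 4 self-self arrays and 12 to 929 with a Pool A array left out. Between the Pool B array and the Pool A mean, 1190 strains became 1899 without centring, 712 with scaling and 719 to 1704 with a Pool A array left out. Its 2310 tags became 3530 with blocks centred separately, 3491 with quantile normalization and 0 to 1651 with a Pool A array left out, 0 being without replicate 1. The 5258 tags away from 0 on the Pool A arrays became 2870 without centring.

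On the mixed array many differences near 0 turned their sign. Set against the Pool B array alone, those of the CIK1 run first (-1.33), CIK1 set 2 first (-1.29) and KIP1 first (1.02) turned and became calls. Of the values that turned in the other 2 comparisons, the strain of CIK1 set 2 between the Pool B array and the Pool A mean was called before (-0.0200 without centring), and none was called after. Without centring the difference of the Pool B array turned for the strains of CIN8 (-0.36), KAR3 (-0.35) and KIP2 (-0.39), the first tags of CIN8 (-0.65) and KAR3 (-0.0488), and the second tags of the CIK1 run (-0.58), CIN8 (-0.0674), KAR3 (-0.64) and KIP1 (-0.55). With scaling it turned for the second tags of CIK1 set 2 (0.00559) and KAR3 (-0.00432). With the main spot only it turned for CIN8 first (-0.0300) and KAR3 second (-0.27), and with blocks centred separately for CIK1 set 1 first (0.00403). With a Pool A array left out it ranged across 0 for the second tags of the CIK1 run (-0.0619 to 0.23), CIK1 set 2 (-0.31 to 0.0983) and KAR3 (-0.0203 to 0.13) and for CIN8 first (-0.00625 to 0.0933). Against 0, blocks centred separately turned the Pool A mean of CIK1 set 1 first (0.0468) and second (-0.0337), KIP1 second (-0.0529) and VIK1 first (0.14), and leaving out an array gave -0.22 to 0.18 for CIK1 set 2 second and -0.12 to 0.0288 for KIP3 second. Without centring, each difference of the Pool B array moves by the same -0.694, the shift between the array medians. Set against the Pool B array alone, each value is the mixed difference minus the Pool B difference. The cause of the other turns was not tested. No paired analysis was possible because the labels pair no array of a group with an array of another. With 1 mixed array and 1 Pool B array, no value of either has a replicate check.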

Other observations

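The genes that flank the members on the chromosomes were read as well, 3 measured genes on either side of each, 42 strains in all. On the mixed array minus the Pool A mean their strain values lay between -1.03 and 0.33, and the lowest single tag was at -1.67, far above the second tag of CIN8. For CIN8 the flanking strains were AVT2 at -0.23, CAN1 at -0.15, NPR2 at -0.06, PRB1 at -0.71, PCM1 at 0.25 and SDD1 at -0.38. PRB1, which encodes a vacuolar protease, passed the threshold, as did 4 others: SKT5 beside KIP1 at -0.85, CLG1 beside KIP3 at -0.97, MEP3 near KAR3 at -1.03 and ATG41 near VIK1 at -0.66. All 5 were negative, 5 of 42 strains, where 5.84% of all strains were called negative and 1.54% positive. Of these 5, PRB1 (-0.91) and MEP3 (-0.86) were also called lower on the Pool B array than the Pool A mean. SKT5 (-0.43), CLG1 (-0.48) and ATG41 (-0.21) were not called there. Among all strains 13.3% were called lower in that comparison.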
